A study of Homo sapiens with 6 samples.

Results

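The 10 genes described here, EGR1, EGR2, IER2, IER3, IER5, NR4A1, ZFP36, ZFP36L1, KLF6 and KLF10, are immediate-early genes other than those of the AP-1 family, and they were picked by symbol from 35052 annotated genes in the tables. They were measured by RNA-seq in EoL-1, a human cell line from an eosinophilic leukaemia, in 3 libraries of ATF3 knockout cells and in 3 libraries of wild-type cells. The knockout was made with CRISPR/Cas9, while the design text of the series calls the derivative a knockdown. All cells were grown in RPMI medium with fetal bovine serum and antibiotics, no stimulus is named for either group, and the labels do not say whether the libraries came from separate cultures or from a clone, so each p-value speaks for the spread among the 6 libraries, which may be technical.

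Immediate-early genes are transcribed within minutes of a stimulus, without new protein synthesis, by factors that already sit in the cell. Signals through the RAS-ERK cascade reach serum response factor (SRF) and its ternary complex partners on CArG boxes, and signals through cAMP and stress kinases reach proteins of the CREB and ATF family on cAMP response elements (CRE). ATF3 is itself an early gene of the ATF family that binds CRE-like sites and often acts as a repressor. The products of the 10 genes are transcription factors with zinc fingers (EGR1, EGR2, KLF6, KLF10), an orphan nuclear receptor (NR4A1), RNA-binding proteins that send AU-rich mRNAs to decay (ZFP36, ZFP36L1) and the small proteins IER2, IER3 and IER5. In resting cells most such genes are kept low, and several of their own mRNAs carry AU-rich elements.

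The targeted gene was read first. ATF3 had 146, 229 and 132 estimated reads in knockout replicates 1 to 3, against 634, 462 and 632 in wild-type replicates 1 to 3. Each knockout library was below each wild-type library, but ATF3 mRNA was still counted in all 3. The log2 fold change, knockout over wild type, was -1.75 (SE 0.25; edgeR, adjusted p = 0.0098), and without wild-type replicate 1 the adjusted p was 0.0527.

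The libraries held 26766103 to 30117281 estimated reads. Of 12 eosinophil markers, 3 passed the filter on low counts (RNASE2, RNASE3 and ADGRE1, all called higher in the knockout). PRG3, CLC, IL5RA and GATA1 were listed at 0 in all 6 libraries, and the defining granule gene EPX reached 0.08 CPM in knockout replicate 1 and was at 0 elsewhere. Few markers of a mature eosinophil were thus counted, though a listed 0 can be a failed estimate, as given for IER3 below. The summed level of the 12 markers was 118 to 184 CPM in knockout libraries and 37.3 to 52.6 CPM in wild-type libraries. Mitochondrial genes took 4.70 to 5.84% of reads in knockout libraries and 3.59 to 3.81% in wild-type libraries. Over all genes, 2770 of 13131 tested were called, which is 21.1%, of which 1494 (11.4%) were higher and 1276 (9.72%) lower in the knockout. In this design 43.5% of tested genes had knockout and wild-type libraries that did not overlap. Without wild-type replicate 1 no call remained anywhere in the table: 0 genes passed edgeR's adjusted p of 0.05, the smallest adjusted p was 0.0503, and 3496 genes had an unadjusted p under 0.05.

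The sequences around the starts of these genes show which early response elements lie there. Promoter windows of 250 bases before the start were taken from RefSeq (GRCh38.p14) for 8 of the 10 genes. IER3 and KLF10 had no entry. The window of EGR1 is chr5:138465229-138465478 on the plus strand, printed with its CArG boxes and its CRE cores (TGACG or its complement CGTCA) in capitals.
EGR1 promoter: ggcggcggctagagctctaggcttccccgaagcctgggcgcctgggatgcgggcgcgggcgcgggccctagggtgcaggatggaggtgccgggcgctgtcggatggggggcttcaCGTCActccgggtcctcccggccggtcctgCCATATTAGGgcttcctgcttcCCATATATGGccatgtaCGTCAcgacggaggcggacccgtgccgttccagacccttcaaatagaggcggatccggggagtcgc
It holds 2 CArG boxes, 105 and 83 bases before the start, and 2 CRE cores, 135 and 66 bases before it. A CArG box, searched on both strands, is in 1.16% of the 35116 RefSeq windows of this length, and the core TGACG in 21.2%.

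For comparison, 30 bases around the sites of the other genes are given with the same marks. EGR1 (chr5:138465392-138465421, plus strand) and EGR2 (chr10:62816412-62816441, minus strand, before 1 of its 3 listed starts) carry a CArG box and a CRE core with 7 bases between them. ZFP36L1 (chr14:68793450-68793479, minus strand) has the full CRE, TGACGTCA, 52 bases before 1 of its 2 listed starts, an element found in 1.65% of windows and one that contains the core on both strands, and a CRE core 147 bases before the other start. IER2 (chr19:13150259-13150288, plus strand) has a single CRE core 140 bases before its start.
EGR1: cttcCCATATATGGccatgtaCGTCAcgac
EGR2: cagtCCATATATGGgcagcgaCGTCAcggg
ZFP36L1: agtggaatgagTGACGTCAcagccgcgctc
IER2: cacccccgccccCGTCAcgccaccatcgag
The windows of ZFP36, IER5, KLF6 and NR4A1 held none of these letters, and no window of the 8 genes held the AP-1 site TGANTCA (6.57% of windows) or the EGR site GCGTGGGCG (0.72%). These are matches of letters, not measured binding. NR4A1 had windows before 2 starts, among them that of NR4A1-206, the form with most of its reads. No window lay before its transcripts that start at 52051402 or 52051442, so sites there were not searched.

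**Figure D1:**
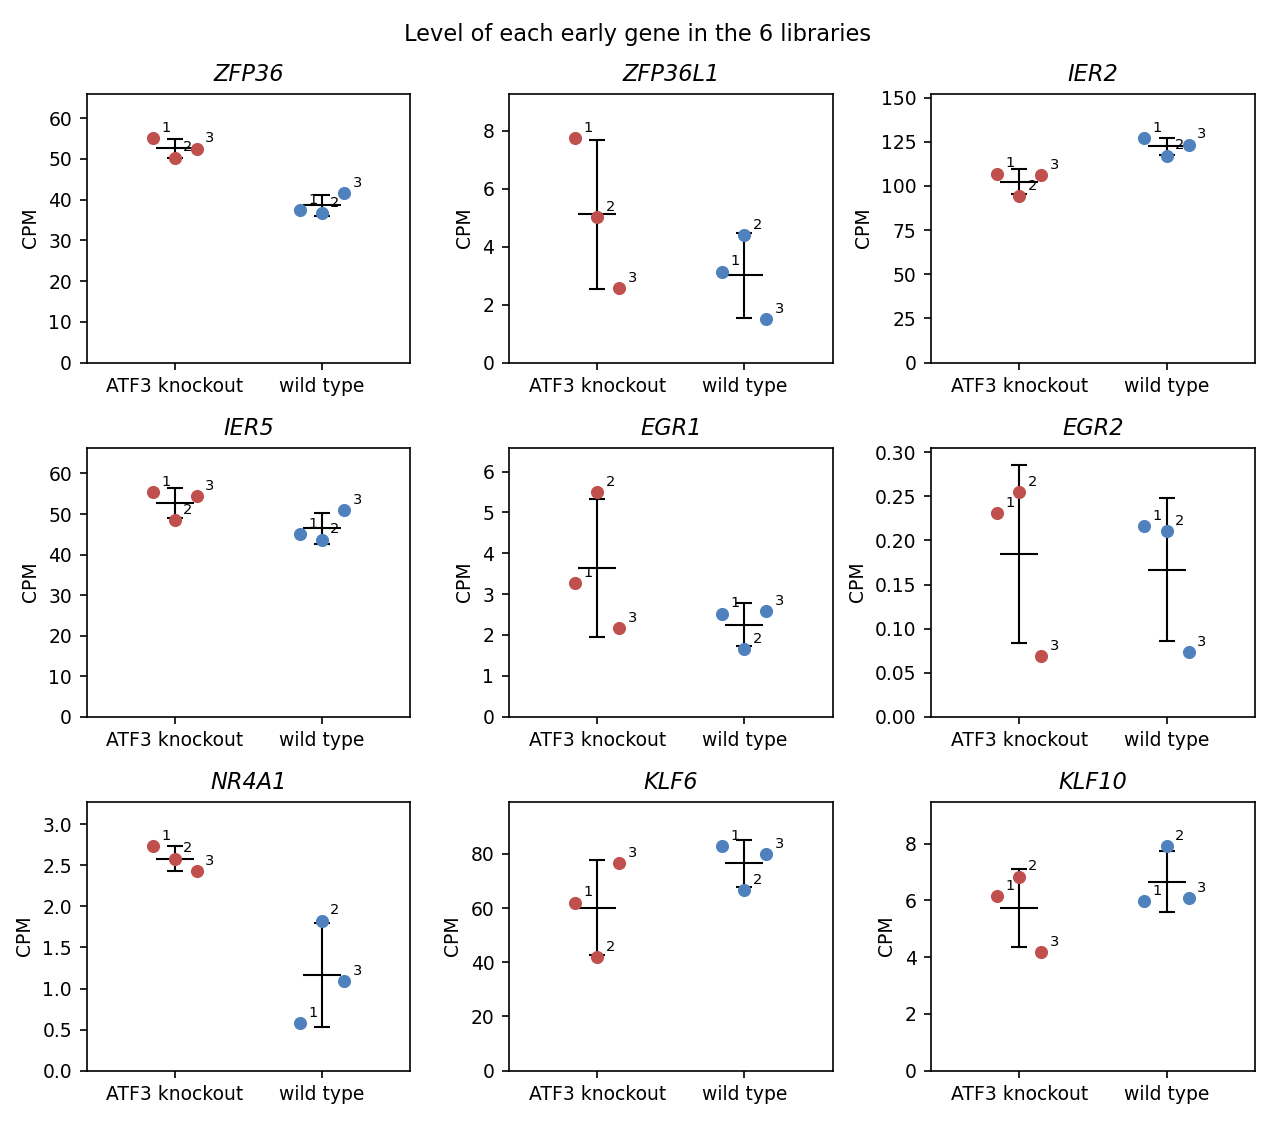
Level of 9 early genes (CPM, TMM-scaled, linear axes from 0) in ATF3 knockout and wild-type libraries. Points are libraries with their replicate number, and bars are mean and SD (n = 3). ZFP36, IER2 and NR4A1 have groups that do not overlap, ZFP36 and NR4A1 with the knockout above and IER2 with the knockout below.

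Of the 10 genes, 8 passed the filter on low counts and were tested, and 2 of the 8 were called at an adjusted p of 0.05, ZFP36 higher and IER2 lower in the knockout. That share is close to the 21.1% of all tested genes that were called (11.4% higher and 9.72% lower), and so is no result about these genes as a group. The groups did not overlap for 3 of the 8 (ZFP36, IER2 and NR4A1), against 43.5% of all tested genes. The median log2 fold change of the 8 was 0.31, against 0.005 over all genes tested. EGR2 was below the filter and IER3 was listed at 0.

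Per length of transcript, IER2 was the most abundant in both groups of the 9 genes with a usable level (IER3 is left out), with 47.8 ± 2.90 TPM in knockout and 57.9 ± 2.89 TPM in wild-type libraries (SD, n = 3 each). ZFP36 followed with 36.1 ± 2.09 TPM in the knockout and 24.3 ± 1.48 TPM in wild type. KLF6 came next at 16.6 ± 4.34 TPM in the knockout and 18.6 ± 0.714 TPM in wild type, and IER5 at 11.8 ± 0.647 TPM in the knockout and 10.0 ± 0.746 TPM in wild type. In knockout libraries the ranges of KLF6 and IER5 overlapped, while in wild-type libraries each of these genes lay clear of the next. ZFP36L1, KLF10, EGR1 and NR4A1 had means of 0.985 to 2.27 TPM in the knockout and 0.537 to 2.11 TPM in wild type. Neighbours among these 4 overlapped in the knockout, and in wild type only KLF10 stood clear of the next gene. EGR2 averaged 0.123 TPM in the knockout and 0.122 TPM in wild type.

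ZFP36 (tristetraprolin), which binds AU-rich elements and recruits the deadenylation machinery, rose in the knockout. ZFP36 (ENSG00000128016.5, chromosome 19, 39406813 to 39409412, plus strand, GRCh38 as for the coordinates that follow) had 55.0, 50.3 and 52.5 CPM in knockout replicates 1 to 3, against 37.4, 36.8 and 41.6 CPM in wild-type replicates 1 to 3. Every knockout library was above every wild-type library, and the gap between the groups was wider than the spread within either. The means were 52.6 ± 2.37 CPM and 38.6 ± 2.60 CPM (SD, n = 3 each), a 1.36-fold difference with a log2 fold change of 0.45 (SE 0.08, 95% interval 0.27 to 0.63; edgeR, adjusted p = 0.0128). The call was kept in 14 of the 15 alternatives, with log2 fold changes of 0.32 to 0.52 over the 15, and was lost without wild-type replicate 1 (adjusted p = 0.0709).

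Both of the ZFP36 transcripts that carried most reads were higher in the knockout libraries. ZFP36-203, which held 92.6 ± 2.11% of the gene's estimated reads in the knockout and 94.6 ± 0.654% in wild type, had 1335, 1247 and 1443 reads in knockout replicates 1 to 3, against 989, 984 and 1074 in wild-type replicates 1 to 3. ZFP36-201 had 95.9, 133 and 85.8 reads in the knockout, against 48.8, 58.4 and 65.6 in wild type. For both transcripts the groups did not overlap. The log2 fold changes were 0.43 (SE 0.08, adjusted p = 0.0976) and 0.89 (SE 0.27, adjusted p = 0.208) in an edgeR fit over 52307 transcripts, in which 0 transcripts passed an adjusted p of 0.05 and 8091 had an unadjusted p under 0.05.

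ZFP36 is also known to bind its own mRNA, and the AU-rich heptamer TATTTAT, written here in DNA letters, is the core of its site. In the most abundant coding transcript of each gene with reads (GENCODE 29), the 3′ UTR held 3 heptamers in ZFP36, 4 in IER5, 3 in ZFP36L1 and 1 in KLF6, and none in EGR1, EGR2, IER2, NR4A1 and KLF10. In the last 500 bases, where 16.9% of 7704 tested coding genes with a 3′ UTR of at least that length had a heptamer and 2.54% had 2 or more, ZFP36 had 3, IER5 had 3 and ZFP36L1 had 1. The sites are shown in 30 bases each, heptamers in capitals. They are matches of letters, and binding was not measured. The printed sites of ZFP36L1 and KLF6 start at base 1169 of 1871 and base 1170 of 3543 of the 3′ UTR. Both lie before its last 500 bases. ZFP36 is at chr19:39409188-39409217 (plus strand), IER5 at chr1:181092447-181092476 (plus), ZFP36L1 at chr14:68788335-68788364 (minus) and KLF6 at chr10:3778340-3778369 (minus), all GRCh38.
ZFP36 site: ccttTATTTATgacgacttTATTTATtcta
IER5 site: cttccttTATTTATTTATTTATttaattat
ZFP36L1 site: ttatcaaaacgTATTTATtgccaaactatg
KLF6 site: tatgtttctctTATTTATgccttgaggact
The IER5 site holds 3 heptamers that overlap in a run of ATTTA repeats, and the ZFP36 site holds 2 that are apart. Of the 4 genes, ZFP36 was called, while IER5, ZFP36L1 and KLF6 were not.

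ZFP36L1 (ENSG00000185650.9, chromosome 14, 68787660 to 68796253, minus strand), the relative of ZFP36 that also destabilises AU-rich mRNAs, was low and varied widely. It had 7.73, 5.02 and 2.57 CPM in knockout replicates 1 to 3, against 3.14, 4.39 and 1.49 CPM in wild-type replicates 1 to 3. Knockout replicate 3 lay below wild-type replicates 1 and 2, so the groups overlapped. The log2 fold change was 0.76 with an interval of -0.41 to 1.93 (edgeR, adjusted p = 0.309), and without knockout replicate 1 it was 0.33 (adjusted p = 0.696). Summed levels of 10 monocyte and macrophage markers were 1199, 1351 and 678 CPM in knockout replicates 1 to 3, against 184, 656 and 186 CPM in wild-type replicates 1 to 3. Knockout replicate 3, with the least ZFP36L1 of its group, also had the lowest marker sum there. Wild-type replicate 2, with the most ZFP36L1 of its group, had the highest. The other libraries did not follow this order. Knockout replicate 2 had a higher sum than knockout replicate 1 but less ZFP36L1. Wild-type replicates 1 and 3 had like sums but 3.14 and 1.49 CPM of ZFP36L1. Of these markers 6 were tested and 2 called higher, FCGR3A and MARCO were listed at 0, and CD14 was under 0.5 CPM in all 6 libraries. Their part in the levels of ZFP36L1 was not tested, and in bulk RNA fewer cells of a type and less RNA per cell cannot be told apart.

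IER2, a small nuclear protein that is induced with FOS and JUN, fell slightly in the knockout. IER2 (ENSG00000160888.6, chromosome 19, 13150415 to 13154908, plus strand) had 107, 94.3 and 106 CPM in knockout replicates 1 to 3, against 127, 117 and 123 CPM in wild-type replicates 1 to 3. The groups did not overlap, and knockout replicate 2 was the lowest library. The means were 102 ± 7.07 CPM and 122 ± 4.97 CPM (SD, n = 3 each), with a log2 fold change of -0.26 (SE 0.07, 95% interval -0.43 to -0.09; edgeR, adjusted p = 0.0453). This is the weaker of the 2 calls. It was kept in 8 of 15 alternatives, the log2 fold change stayed between -0.39 and -0.20, and the adjusted p was 0.0632 with no filter on low counts, 0.0501 with an offset for effective length, 0.0759 and 0.0914 without knockout replicates 1 and 2, and 0.167, 0.0551 and 0.145 without wild-type replicates 1, 2 and 3.

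The estimated mix of IER2 transcripts also differed between the groups, without overlap for its 2 longest forms. The spliced transcript IER2-201, whose exons span 13150433 to 13150552 and 13152944 to 13154908, had 1585, 1611 and 1718 estimated reads in knockout replicates 1 to 3, against 2521, 2426 and 2461 in wild-type replicates 1 to 3. The unspliced transcript IER2-203, 1 exon spanning 13151975 to 13154908, had 869, 747 and 1090 reads in the knockout, against 582, 552 and 549 in wild type. The spliced form was thus lower, and the unspliced form higher, in each of the 3 knockout libraries than in any of the wild-type ones.

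IER2-203 took 31.8 ± 3.24% of the gene's estimated reads in the knockout and 16.4 ± 0.181% in wild type (SD, n = 3 each). An exact two-sided permutation test on this share gave p = 0.1, the smallest that 3 against 3 libraries allow. Groups that do not overlap always give this value, and the share was picked after the data were seen. The test therefore adds nothing to the values. In the transcript fit of edgeR the log2 fold change was -0.57 for IER2-201 (SE 0.05, adjusted p = 0.058) and 0.71 for IER2-203 (SE 0.14, adjusted p = 0.0922), neither of them past 0.05. IER2-202, a shorter spliced form, had 328, 235 and 286 reads in the knockout, against 419, 355 and 372 in wild type. What sets IER2-203 apart in the annotation is 969 bases, 13151975 to 13152943, that are intron in the other 2 forms. An antisense gene on the opposite strand, AC011446.2, shares 946 exon bases with IER2 but none of those 969, and it has no row in the tables used here. The sources used here do not say if strand was used in the quantification.

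**Figure D2:**
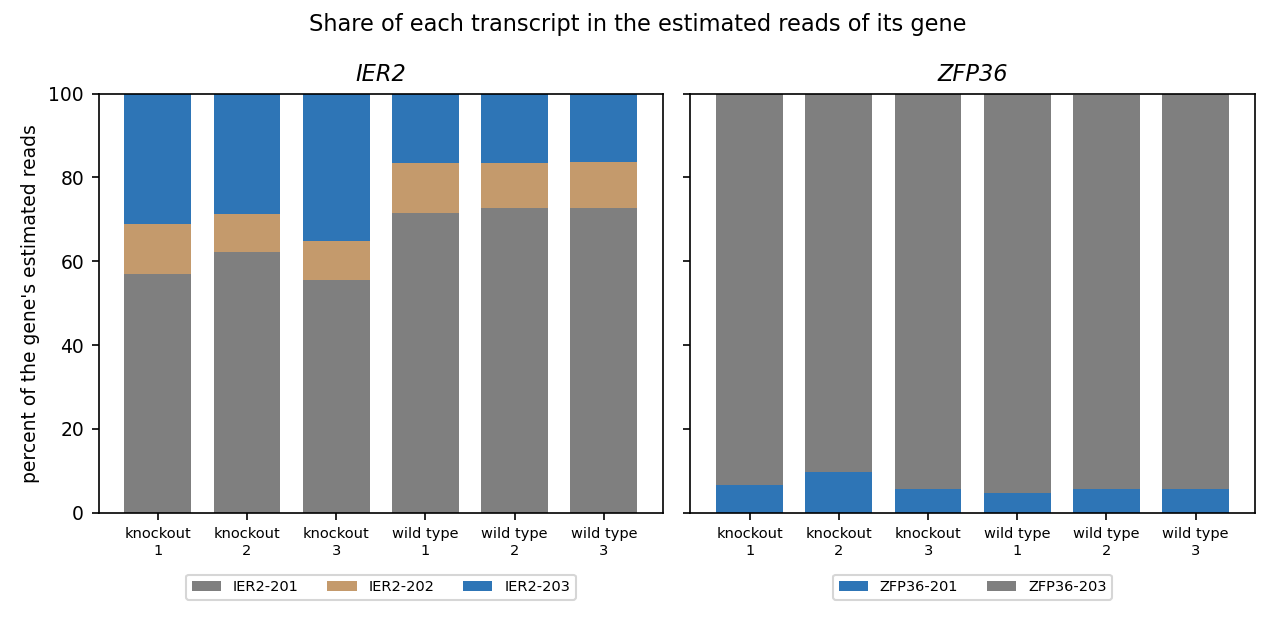
Percent of the estimated reads of IER2 (left) and ZFP36 (right) assigned to each transcript, in 3 ATF3 knockout and 3 wild-type libraries. Transcripts that stayed under 0.5% in all libraries are not drawn. The unspliced IER2-203 takes 31.8% of IER2 reads on average in the knockout and 16.4% in wild type, while ZFP36-203 dominates in all 6 libraries.

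IER5 (ENSG00000162783.10, chromosome 1, 181088712 to 181092899, plus strand), a regulator of heat shock factor and of protein phosphatase 2A, is an intronless gene with 1 transcript in the tables. It had 55.3, 48.4 and 54.5 CPM in knockout replicates 1 to 3, against 45.0, 43.7 and 50.9 CPM in wild-type replicates 1 to 3. Knockout replicate 2 lay below wild-type replicate 3, so the groups overlapped. The log2 fold change was 0.18 with an interval of -0.03 to 0.39 (edgeR, adjusted p = 0.184), and no alternative called it.

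IER3 (ENSG00000137331.11, chromosome 6, 30743199 to 30744554, minus strand), an early gene tied to the control of apoptosis, was listed at 0 in all 6 libraries for both of its transcripts. Among its protein-coding neighbours within 100000 bases, FLOT1 and DHX16, which most cells use, were likewise listed at 0 in all 6. TUBB, a beta-tubulin, had 0, 934 and 2807 reads in knockout replicates 1 to 3, against 0, 0 and 84 in wild-type replicates 1 to 3. MDC1 and PPP1R18 in the same stretch had reads in every library, 1573 to 2011 and 2869 to 3803. Since genes that every cell uses are also at 0, the 0 of IER3 can be a failed estimate, and no level or fold is given. Of 9 transcripts without a gene in the annotation that have the length of an IER3 transcript, 3 had reads. They summed to 3.30 ± 1.42 CPM in the knockout and 2.86 ± 1.08 CPM in wild type (SD, n = 3 each), but whether any of them is IER3 was not tested.

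EGR1, the zinc-finger factor whose promoter is printed above, was low in both groups and did not pass the test. EGR1 (ENSG00000120738.7, chromosome 5, 138465490 to 138469315, plus strand) had 3.27, 5.49 and 2.16 CPM in knockout replicates 1 to 3, against 2.52, 1.65 and 2.59 CPM in wild-type replicates 1 to 3. Knockout replicates 1 and 2 were above all wild-type libraries, and knockout replicate 3 lay among them. The log2 fold change was 0.69 with an interval of -0.19 to 1.57 (edgeR, adjusted p = 0.225), and it was 0.27 without knockout replicate 2. EGR1 had 47 to 151 reads per library, and the knockout libraries, at 3.64 ± 1.70 CPM, were spread more widely than the wild-type libraries at 2.25 ± 0.523 CPM (SD, n = 3 each). EGR2 (ENSG00000122877.15, chromosome 10, 62811996 to 62919900, minus strand), the relative of EGR1 with a like arrangement of sites, had 6, 7 and 2 reads in knockout replicates 1 to 3, against 6, 6 and 2 in wild-type replicates 1 to 3, and was not tested.

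By Pearson's r of log2 CPM over the 6 libraries, the 5 genes most like EGR1 among 8786 tested protein-coding genes with a mean of at least 10 CPM were SCARB2 (r = 0.989), LDAH (0.981), DNAJC25 (0.977), C5orf22 (0.971) and GNPAT (0.960). For ZFP36 they were PRICKLE3 (0.995), ORC2 (0.994), SHANK1 (0.993), MTO1 (0.993) and CDC14A (0.989), and since its groups do not overlap, r there includes the difference between the groups. With 6 libraries and 8786 genes, such values are a description of these libraries.

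NR4A1 (Nur77), an orphan nuclear receptor that myeloid cells switch on during activation, was higher in every knockout library but was not called. NR4A1 (ENSG00000123358.19, chromosome 12, 52022832 to 52059507, plus strand) had 2.73, 2.58 and 2.43 CPM in knockout replicates 1 to 3, against 0.577, 1.83 and 1.09 CPM in wild-type replicates 1 to 3. The knockout libraries lay close together at 71 reads each, while wild-type libraries ranged over 16, 52 and 30 reads. The means were 2.58 ± 0.149 CPM and 1.17 ± 0.628 CPM (SD, n = 3 each), with a log2 fold change of 1.14 (SE 0.39, 95% interval 0.22 to 2.07; edgeR, adjusted p = 0.0796). DESeq2 and limma-voom called it, with adjusted p = 0.042 and 0.0493, and so did edgeR without wild-type replicate 2, the library with the most NR4A1 in that group (log2 fold change 1.62, adjusted p = 0.0297). With an offset for effective length the log2 fold change was 0.86 (adjusted p = 0.385). A gene on the opposite strand, AC025259.3, shares 754 exon bases with NR4A1 and has no row in the tables used here.

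KLF6 (ENSG00000067082.14, chromosome 10, 3775996 to 3785281, minus strand), a Krüppel-like activator found in many tissues, had 62.0, 41.9 and 76.7 CPM in knockout replicates 1 to 3, against 82.8, 66.8 and 79.9 CPM in wild-type replicates 1 to 3. Knockout replicate 2 was far below the rest, and knockout replicate 3 lay among the wild-type libraries. The log2 fold change was -0.34 with an interval of -0.84 to 0.15 (edgeR, adjusted p = 0.277), and it was -0.14 without knockout replicate 2. The libraries with the most KLF6, wild-type replicates 1 and 3, had the lowest sums of the monocyte markers given above, and the library with the least KLF6 had the highest. That relation was not tested. The 2 main transcripts, KLF6-206 and KLF6-207, held 59.5 ± 1.23% and 33.9 ± 1.25% of the reads in the knockout, against 62.0 ± 6.06% and 33.3 ± 5.35% in wild type.

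KLF10 (ENSG00000155090.14, chromosome 8, 102648779 to 102655902, minus strand), a repressor induced by TGF-beta, had 6.15, 6.84 and 4.18 CPM in knockout replicates 1 to 3, against 5.98, 7.91 and 6.09 CPM in wild-type replicates 1 to 3. The groups overlapped, with knockout replicate 3 the lowest library. The log2 fold change was -0.22 with an interval of -0.75 to 0.32 (edgeR, adjusted p = 0.525). Leaving out knockout replicate 3 gave -0.05, leaving out knockout replicate 2 gave -0.37, and leaving out wild-type replicate 2 gave -0.08.

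**Figure D3:**
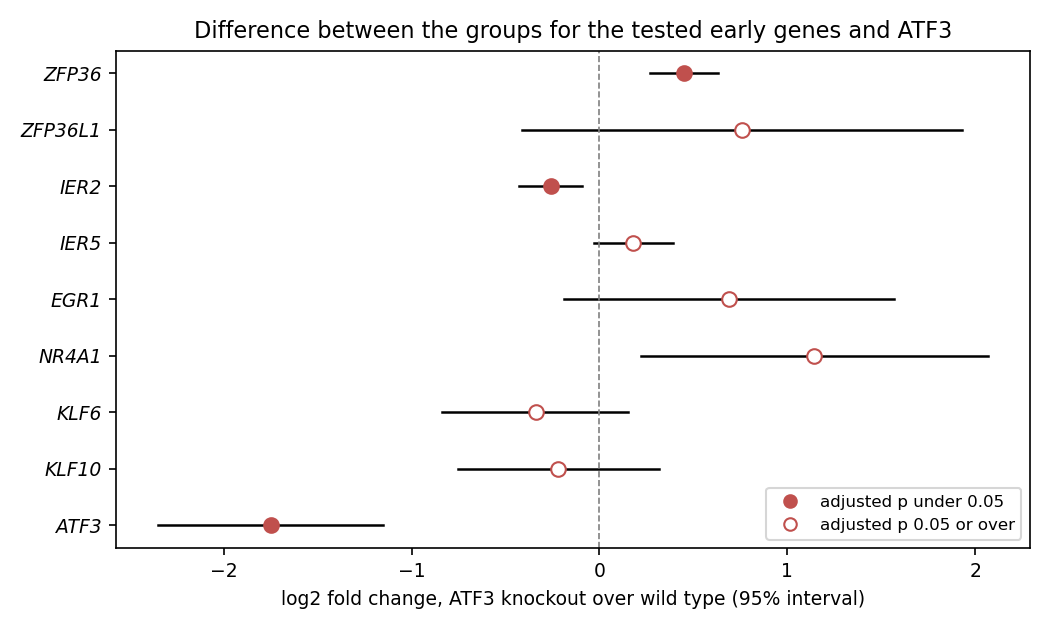
Log2 fold change, ATF3 knockout over wild type, of the 8 tested early genes and ATF3, with 95% intervals from the edgeR fit (n = 3 per group). Filled points are called at an adjusted p of 0.05. ZFP36 at 0.45, IER2 at -0.26 and ATF3 at -1.75 are called, and NR4A1 at 1.14 has an interval above 0 but is not called.

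Companion genes, taken from 13 lists of relatives, regulators and targets, were read from the same fit. All their calls were lost without wild-type replicate 1, as for the whole table. Over all tested genes 21.1% were called, 11.4% higher and 9.72% lower, and the counts for each list are to be set beside these shares. The closest relatives gave 4 calls among 12 tested of 15. ZFP36L2, the third RNA-binding protein of the ZFP36 family, was the most abundant of them and rose, with 1008, 923 and 948 CPM in knockout replicates 1 to 3, against 588, 711 and 623 CPM in wild-type replicates 1 to 3 (log2 fold change 0.58, SE 0.08; edgeR, adjusted p = 0.00977). Its groups did not overlap, and its call was lost without wild-type replicates 1 and 3. The falls were in Krüppel-like factors, KLF9 (log2 fold change -0.69, adjusted p = 0.0122), KLF3 (-0.41, 0.0254) and KLF4 (-0.73, 0.0298). KLF4 was lower in the knockout in all 15 alternatives and called in 10. KLF4 was named after its values were seen. The median log2 fold change of the relatives was -0.28.

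Among the factors that drive early genes, MRTFA, the actin-regulated coactivator of SRF, was the only call in 7 tested SRF and ternary complex factors and rose (102, 95.1 and 108 CPM in the knockout against 60.2, 69.3 and 62.8 CPM in wild type; log2 fold change 0.67, adjusted p = 0.0081). Of 14 RAS-ERK cascade kinases, 3 were called higher and none lower, a share close to the 21.1% called over all genes. These were MKNK2 (log2 fold change 0.64, adjusted p = 0.00801), RPS6KA1 (0.21, 0.0298) and MKNK1 (0.39, 0.0473), kinases that act downstream of ERK. All 3 had groups that did not overlap, as did 43.5% of all tested genes. MKNK2 was called in 14 of 15 alternatives but RPS6KA1 in 6 and MKNK1 in 5. With the GC trend removed RPS6KA1 was at 0.11 (adjusted p = 0.167), and MKNK1 was not called with limma-voom (adjusted p = 0.0558). Of 6 tested ERK feedback inhibitors, SPRED2 fell (log2 fold change -0.30, adjusted p = 0.0396), a call kept in 7 of 15 alternatives. Among CREB and its coactivators CRTC2 rose (0.43, 0.0122), CRTC1 fell (-0.33, 0.0153) and 5 were not called. With an offset for effective length CRTC1 was at -0.19 (adjusted p = 0.153). The median log2 fold changes of these 4 lists were 0.13, 0.07, -0.23 and 0.04.

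Other genes of the early response moved in both directions. Of 25 listed, 21 were tested, 6 were higher, 1 was lower, and the median log2 fold change was 0.16. For this and the other lists here, 11.4% of all tested genes were higher and 9.72% lower. The lower gene was PPP1R15A (log2 fold change -0.86; edgeR, adjusted p = 0.0205). TNFAIP3, which restrains NF-kB signalling, had 53.7, 68.1 and 47.1 CPM in knockout replicates 1 to 3, against 24.5, 26.7 and 26.9 CPM in wild-type replicates 1 to 3 (log2 fold change 1.11, SE 0.14; edgeR, adjusted p = 0.00859). Every knockout library was well above every wild-type library. CITED2, a partner of CBP and p300, rose (0.56, adjusted p = 0.0118), and so did the clock gene PER1 (0.65, adjusted p = 0.0167). In AP-1, 2 of 9 tested genes were higher and 2 lower, with a median of 0.36. Among them were FOS (1.23, adjusted p = 0.0134), JUNB (0.36, adjusted p = 0.0223) and BATF3 (-1.52, adjusted p = 0.0259). BATF3 (212686418 to 212699985) lies near the targeted ATF3 (212565334 to 212620777) on chromosome 1. Whether its fall is tied to the edit at that place was not tested. Of 8 tested dual-specificity phosphatases, which switch MAP kinases off, only DUSP4 was called (1.13, adjusted p = 0.0219), and the median was -0.14.

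Downstream of the ZFP36 proteins, known target transcripts gave 1 rise and 1 fall among 7 tested of 12, with a median log2 fold change of -0.03. Over all tested genes 11.4% were higher and 9.72% lower. TNF, the founding target of ZFP36 in mouse, had 101, 106 and 72.2 CPM in knockout replicates 1 to 3, against 61.7, 65.0 and 52.9 CPM in wild-type replicates 1 to 3 (log2 fold change 0.64, adjusted p = 0.0319), and its call was kept in 9 of 15 alternatives. TNF lies on chromosome 6 (31575567 to 31578336), as IER3 does, and whether reads of TNF were assigned to transcripts without a gene was not tested. VEGFA had 356, 236 and 376 CPM in the knockout, against 726, 529 and 768 CPM in wild type (log2 fold change -1.06, adjusted p = 0.0176). In both genes the groups did not overlap, in opposite directions. In the CCR4-NOT deadenylase, which ZFP36 recruits, the catalytic subunit CNOT7 fell (-0.43, adjusted p = 0.00932), its paralog CNOT8 rose (0.43, adjusted p = 0.0488) and 8 of 10 were not called, with a median of -0.02. The call of CNOT8 was kept in 7 of 15 alternatives and lost with RLE factors (adjusted p = 0.0511) and the replicate block (adjusted p = 0.0649).

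The TGF-beta pathway in which KLF10 acts had 4 of 10 tested genes lower and none higher, where 9.72% of all tested genes were lower and 11.4% higher. No test set the group against other genes, and its median log2 fold change was -0.19. The list was chosen with earlier results of these data known, so its share of calls is not independent evidence about the pathway. The receptor TGFBR1 (-0.48, adjusted p = 0.0179), the inhibitory SMAD7 (-0.86, adjusted p = 0.02) and the corepressor SKIL (-0.90, adjusted p = 0.0221) fell. With an offset for effective length SMAD7 was at -0.52 (adjusted p = 0.239) and SKIL at -0.95 (adjusted p = 0.0606), and with the GC trend removed TGFBR1 was at -0.32 (adjusted p = 0.125). SMAD7 had 7.54, 6.22 and 7.34 CPM in the knockout, against 15.4, 10.2 and 12.8 CPM in wild type, without overlap. Neither of the EGR corepressors was called. NAB2, the more abundant, had 11.2, 12.7 and 15.2 CPM in the knockout, against 10.3, 9.56 and 9.70 CPM in wild type (log2 fold change 0.40, adjusted p = 0.083), and the median of the pair was 0.33. Of the NR4A partners only RXRA was tested (-0.02, adjusted p = 0.893). RXRB and RXRG were listed at 0 in all 6 libraries. As for IER3, a 0 can be a failed estimate, so it is not read as absence, and this was not tested.

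The 24 called companions named by the rule on smallest p kept their direction in all 15 alternatives, but not their call. Without wild-type replicate 1 none of the 24 was called, without wild-type replicate 3 only 3 were (TNFAIP3, MRTFA and MKNK2), and without knockout replicate 1 the number was 15. With an offset for effective length 16 of the 24 were called. DESeq2 called all 24 and limma-voom 23.

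**Figure D4:**
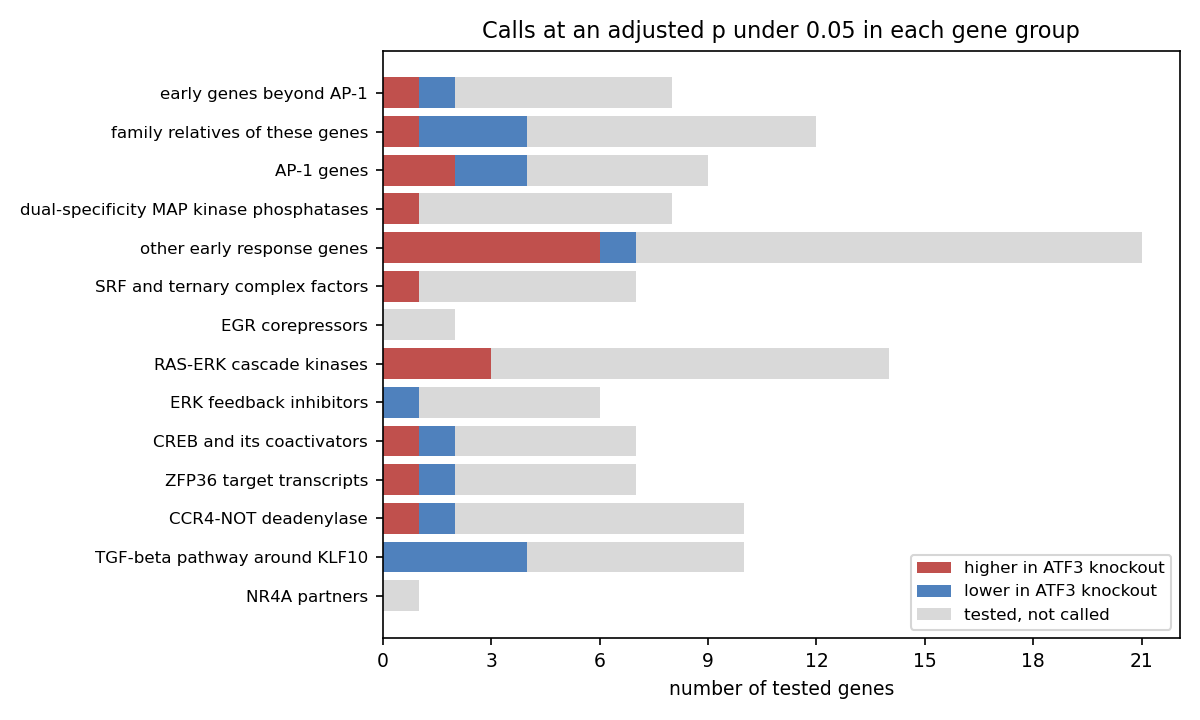
Number of tested genes called higher (red) or lower (blue) in ATF3 knockout against wild type, or not called (grey), for the 10 early genes and 13 companion groups. The early genes show 1 rise and 1 fall among 8 tested. Over all tested genes 11.4% were called higher and 9.72% lower.

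Summed markers of some other cell types also did not overlap between the groups. Of 12 neutrophil markers 6 were tested and 2 called higher, 5 were listed at 0 in all libraries (ELANE, AZU1, PRTN3, LTF and FCGR3B), and their sum was 315 to 606 CPM in knockout libraries and 96.6 to 178 CPM in wild-type libraries. The called genes were MPO (log2 fold change 1.21; edgeR, adjusted p = 0.0145) and S100A8 (3.75, adjusted p = 0.037). Together with S100A9 they made up most of the sum in each knockout library. CTSG alone of the tested markers was lower in the knockout (-1.20, adjusted p = 0.0679), so the sum does not stand for all neutrophil markers. The mast cell and basophil list (2 tested of 8, sum 0.343 to 3.00 CPM in the knockout and 0.583 to 1.86 CPM in wild type) and the lymphocyte list (4 tested of 10, sum 134 to 174 CPM in the knockout and 120 to 147 CPM in wild type) had no calls. The erythroid and megakaryocyte list had 1 higher of 2 tested, with a sum of 12.3 to 17.2 CPM in the knockout and 10.8 to 13.01 CPM in wild type. The list for endothelium, stroma and epithelium had 1 higher and 1 lower of 2 tested. Its sum was 39.8 to 44.8 CPM in the knockout and 20.2 to 25.0 CPM in wild type. Most of that sum was PECAM1 alone, the higher gene, at 37.1 to 41.4 CPM in the knockout and 15.5 to 18.6 CPM in wild type. The lower gene was KRT8. CDH5, KDR, COL3A1 and EPCAM were listed at 0 in all 6 libraries, so the sum does not stand for these cell types. The part of these markers in the values of the early genes was not tested.

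**Figure D5:**
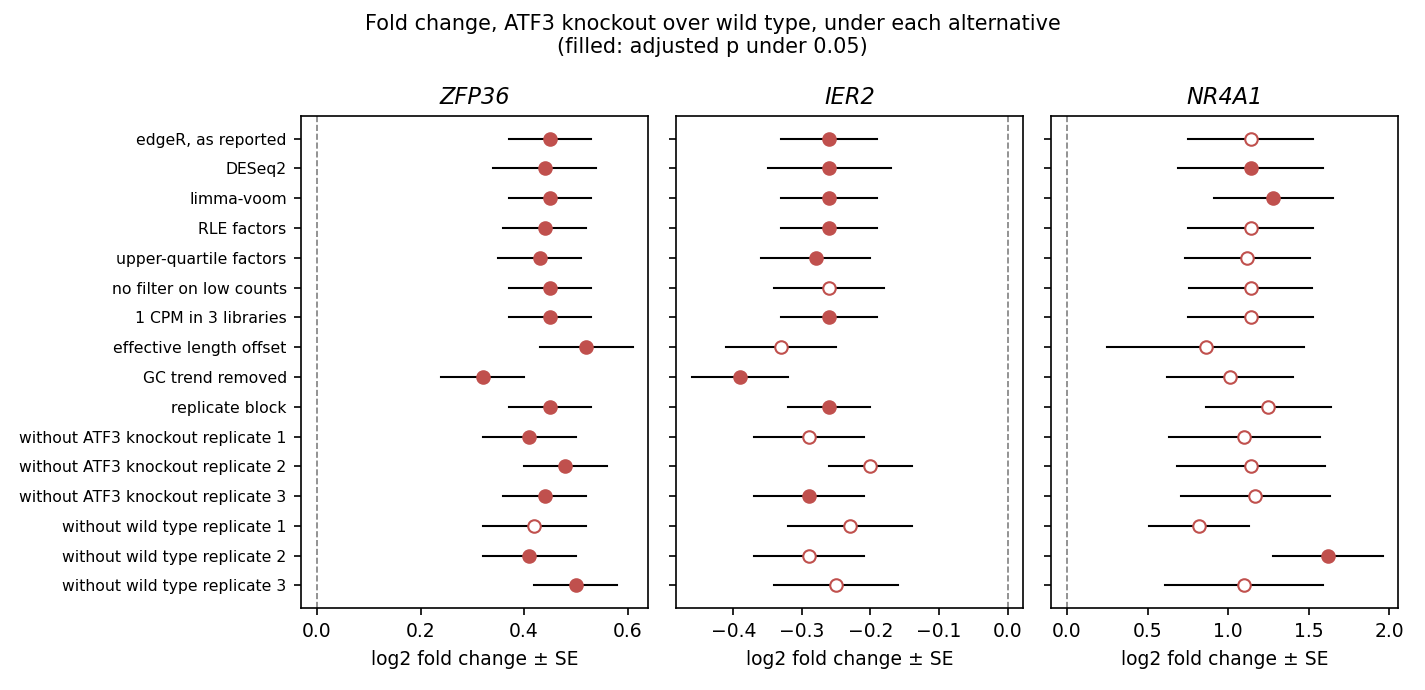
Log2 fold change, ATF3 knockout over wild type, with SE, of ZFP36, IER2 and NR4A1 in the fit as reported and in 15 alternatives. Filled points have an adjusted p under 0.05. All points of ZFP36 and NR4A1 are above 0 and all of IER2 below 0, ZFP36 loses its call only without wild-type replicate 1, and NR4A1 gains one in 3 alternatives.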

How the data were processed

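Polyadenylated RNA was sequenced with a stranded mRNA kit, per the labels. For each library, estimated counts and TPM per transcript were deposited by the authors as a Salmon table, per the file headers, and 93.0% of nonzero estimated counts were not whole. The submitters' processing notes name Salmon 1.6.0, FastQC 0.11.9 and hg38. Which library type Salmon was given is not given in the sources used here, so reads of antisense neighbours cannot be told apart.

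Transcripts were joined to GENCODE 29 genes by identifier without version (167027 of 177456 matched, and those unmatched held 3.59 to 3.82% of reads). Counts were summed over 35052 genes, rounded and tested on the group alone with the quasi-likelihood test of edgeR 4.0.16 (R 4.3.3, TMM factors, filterByExpr with a minimum of 10 reads, Benjamini-Hochberg over 13131 genes, 4 residual degrees of freedom). TPM served as levels only. DESeq2 1.42.0, limma-voom (limma 3.58.1), other scalings and filters, an effective length offset, a GC trend, a replicate block and leaving out each library were alternatives, and a fit per transcript was added after seeing the data. On simulated counts over 13131 genes the test called 32.8% of 64 genes changed 1.5-fold and 53.6% of 69 genes changed 2-fold. It called 91% of 67 genes changed 4-fold and 14 of 12752 unchanged. Far fewer genes were changed there than the 2770 called in the data. The adjusted p depends on that number, so these shares do not carry over to this comparison.

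The members and gene lists were chosen with earlier results of these data known. The text names all members and ATF3, and up to 3 called genes per companion list by smallest p (or the most abundant where none was called). KLF4 and PPP1R15A are exceptions, named after their values were seen. The 5 genes most like EGR1 and ZFP36 are named as well.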

Additional observations from a re-analysis of the deposited data

How the results depend on the processing

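Of the 10 members, 2 were called as reported, 3 with DESeq2 and 3 with limma-voom (NR4A1 added in both), 1 with no filter on low counts and 1 with the effective length offset, and 0 to 2 when a library was left out. Without wild-type replicate 2 the 2 were ZFP36 and NR4A1, both higher. The number of genes called was 2770 as reported, 3606 with DESeq2, 1384 with the effective length offset and 0 to 2758 when a library was left out, with 1406 and 1721 without knockout replicates 1 and 2, and 0 and 358 without wild-type replicates 1 and 3. The cause was not tested. No tested member changed direction at the gene level in any of the 15 alternatives. Of all log2 fold changes of members, ATF3 and companions under the alternatives, 419 kept direction and side of the threshold, 101 lost the call, 3 gained it and 2 reversed, both of RXRA, which lay between -0.10 and 0.03 when a library was left out. Taken alone, the transcripts IER2-203 (0.71), KLF6-205 (0.28) and KLF6-204 (0.09) had the opposite sign to their gene. Replicate numbers were not taken as pairs in the fit as reported. Deviations of same-numbered libraries from their group means had correlations of -0.092, 0.106 and 0.196. Knockout replicate 1 was most like wild-type replicate 2 (0.169). Knockout replicates 2 and 3 were each most like the wild-type library of the same number. Correlations this weak over so few libraries cannot say whether the libraries were paired. With the replicate block 2318 genes and 2 members were called. The levels of EGR1, NR4A1 and ZFP36L1 rest on 16 to 201 reads per library and those of EGR2 on 2 to 7, which limits their precision.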
